A study of Homo sapiens with 40 samples.

Results

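The genes described here are 38 S phase and replication genes, chosen by name from the 59251 gene symbols of a table of read counts. All 38 were in the table, and all of them passed the low-count filter that left 19703 genes for testing. Their lowest count in any library was 320, for CCNE1. RNA was sequenced from H1299, a human line established from a non-small cell lung carcinoma, in 10 lines with 4 replicate cultures each. Unedited cells, wild-type for MYO10 and JAG1, were the H1299 parentals, the 3L2 leaders and the 3F2 followers; leaders are cells that head an invading group, and followers trail them. Editing with CRISPR-Cas9 had produced the remaining 7 lines, all of them clones, and the series title names leader cells as the background. Clones 38 and 75 carried the genotype label MYO10 JAG1 WT, clones 35 and 72 the label JAG1 KO, and clones 98 and 99 the label MYO10 KO. Clone 84 was labelled MYO10 KD by genotype and KO by title, and it is called the knockdown clone here. Each clone is a single line, so 2 clones stand for each edited genotype and 1 for the knockdown. The study set these lines side by side to ask how loss of Myosin 10, a motor of filopodia, or of Jagged 1, a ligand of Notch receptors, alters expression in leader cells.

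DNA replication is prepared in G1, when the origin recognition complex with CDC6 and CDT1 loads the MCM ring onto origins. On entry into S phase, CDC45 and the GINS complex join the ring to form the active helicase, and primase, polymerases, the clamp loader and ligase then copy the strands. Transcription of most of these genes is known to rise at the G1/S boundary under E2F factors. In a bulk culture their level therefore follows both the share of cells in S phase and the amount of RNA per cell, and these cannot be told apart here.

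Library totals lay between 40038816 and 44013445 counts. Levels are given in CPM, that is, counts normalised to library totals scaled by the trimmed mean of M values. Differences are log2 fold changes from edgeR, with a standard error derived from its F statistic. Where several clones were compared, both values belong to the average over the clones. That error measures the spread between cultures and leaves out the difference between clones of a genotype. A gene passed at a Benjamini-Hochberg adjusted p under 0.05 over all 19703 genes, with no minimum fold. Where several clones were compared, the largest p over the pairs of lines was adjusted, and all pairs had to share a direction. A gene can therefore pass for each clone set singly against the wild-type clones and not in the joint comparison. MYO10 averaged 645 ± 75.2 CPM in leaders, 491 ± 79.9 and 441 ± 66.9 in wild-type clones 38 and 75, 63.4 ± 5.82 and 52.0 ± 5.08 in knockout clones 98 and 99, and 149.8 ± 27.3 in clone 84 (SD, n = 4). Unedited followers had the lowest MYO10 level of all lines, 0.112 ± 0.144 CPM. JAG1 averaged 44.2 ± 9.63 and 40.5 ± 1.38 CPM in the wild-type clones, 32.4 ± 1.76 in knockout clone 35 and 6.49 ± 0.296 in knockout clone 72. The cultures of clone 35, from 30.4 to 33.9 CPM, were thus only somewhat below the lowest wild-type culture at 37.6. JAG1 was higher in leaders (139 ± 18.7 CPM), in MYO10 knockout clones 98 and 99 (80.5 ± 13.7 and 102 ± 22.1) and in clone 84 (151 ± 41.0) than in the wild-type clones, so JAG1 also differs in the MYO10 comparisons, and its part in their results was not tested. VIM, FN1 and CDH2 and the keratins KRT8 and KRT18 were expressed, while KRT19, EPCAM and CDH1 stayed at or under 0.394 CPM in every library and the 6 lung epithelial markers at or under 1.75 CPM. Of 6 fibroblast and 5 leukocyte markers, COL1A1 and CD68 alone reached 5 CPM in a library, and the 4 endothelial markers stayed at or under 0.783 CPM. Replicates of a line are labelled as biological, without saying whether they were grown at separate times, so each p-value measures the spread between these cultures. Replicate 3 of clone 84 and replicate 3 of clone 99 stood apart from the other cultures of their lines in several replication genes, the former low and the latter high.

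Replication genes varied little among the lines compared with genes at large. The difference between the highest and the lowest line mean had a median of 0.74 on the log2 CPM scale over the 38 genes, against 1.19 over all genes tested. It was under 1, that is under 2-fold, for 31 of 38 (81.6%) and for 39% of all genes. The genes at large were not matched to the 38 for level and include genes with far lower counts. The part of level in this gap was not tested. All 38 differed among the 10 lines (edgeR F test), as did 93.1% of all genes tested. MCM3, a subunit of the MCM ring, had the smallest range at 0.31, from 350.1 CPM in parentals to 282 in clone 98. CCNE1, cyclin E1, which activates CDK2 at the G1/S transition, had the widest at 1.90. The other genes with a range over 1 were MCM4, MCM7, RFC2, RFC4, GINS4 and GINS3. The lowest line mean was in clone 98 for 12 genes, in clone 84 for 11 and in clone 99 for 10, so that 33 of the 38 had it in a MYO10 knockout or knockdown clone. None had it in followers, the line with the least MYO10 RNA, and a link with MYO10 level was not tested. The lowest line was not counted over all genes, so 33 of 38 has no background share beside it.

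**Figure D1:**
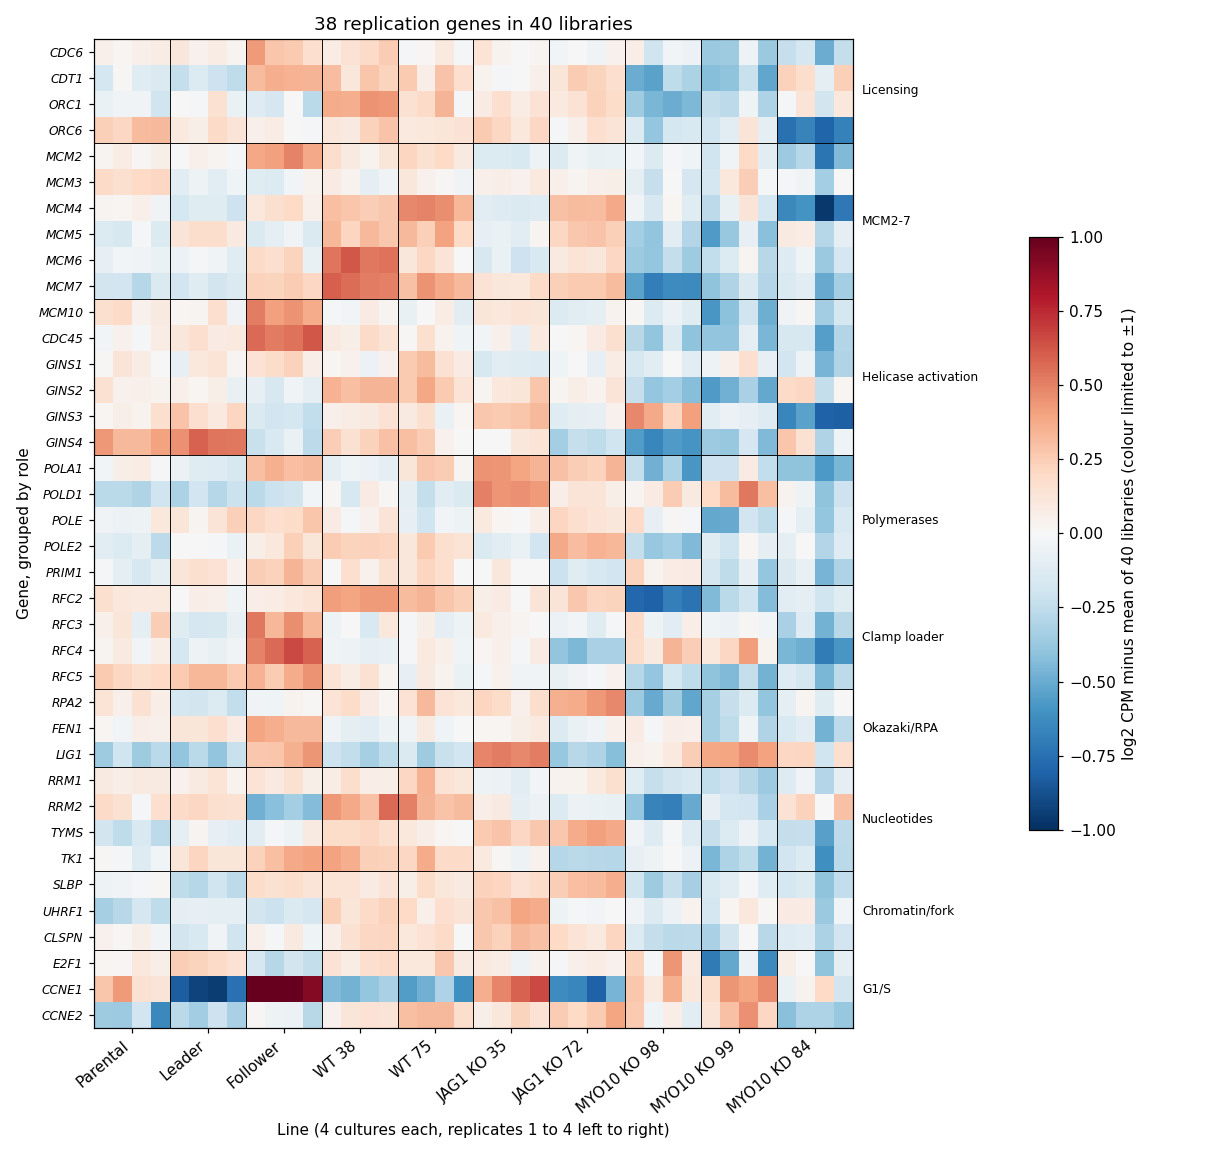
Level of each of the 38 replication genes in each library, as log2 CPM minus the mean of the gene over the 40 libraries, with columns grouped by line and rows by role; colours stop at ±1, which CCNE1 exceeds in followers. Most rows are blue in MYO10 knockout clones 98 and 99 and in knockdown clone 84, and CCNE1 runs against that pattern.

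The median of the 38 genes in a library, taken as log2 CPM minus the mean of each gene, was lower in the MYO10 knockout and knockdown clones than in the other lines. It averaged -0.14 ± 0.06 (SD, n = 4) in clone 98, -0.19 ± 0.10 in clone 99 and -0.20 ± 0.13 in clone 84. Line means of the other 7 lines lay between 0.003 in leaders and 0.15 in followers. The 4 cultures of followers, a separate unedited line with the lowest MYO10 RNA, lay from 0.11 to 0.19. The part of MYO10 level in these medians was not tested. The highest of the 12 cultures of clones 98, 99 and 84 was at -0.05, in replicate 3 of clone 99, and the lowest of the other 28 was at -0.04, in a leader culture, so these clones and the other lines met without overlapping. Replicate 3 of clone 84 was the lowest of all at -0.39. For 56 further replication genes the groups overlapped more, with replicate 3 of clone 99 at 0.05 and the lowest leader culture at -0.05. Their mean was -0.12 ± 0.05, -0.10 ± 0.10 and -0.11 ± 0.09 in clones 98, 99 and 84. For 56 G2 and mitosis genes the means were -0.25 ± 0.13 and -0.29 ± 0.16 in clones 98 and 99 but -0.03 ± 0.15 in clone 84, where the 4 cultures spread from -0.25 to 0.09.

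**Figure D2:**
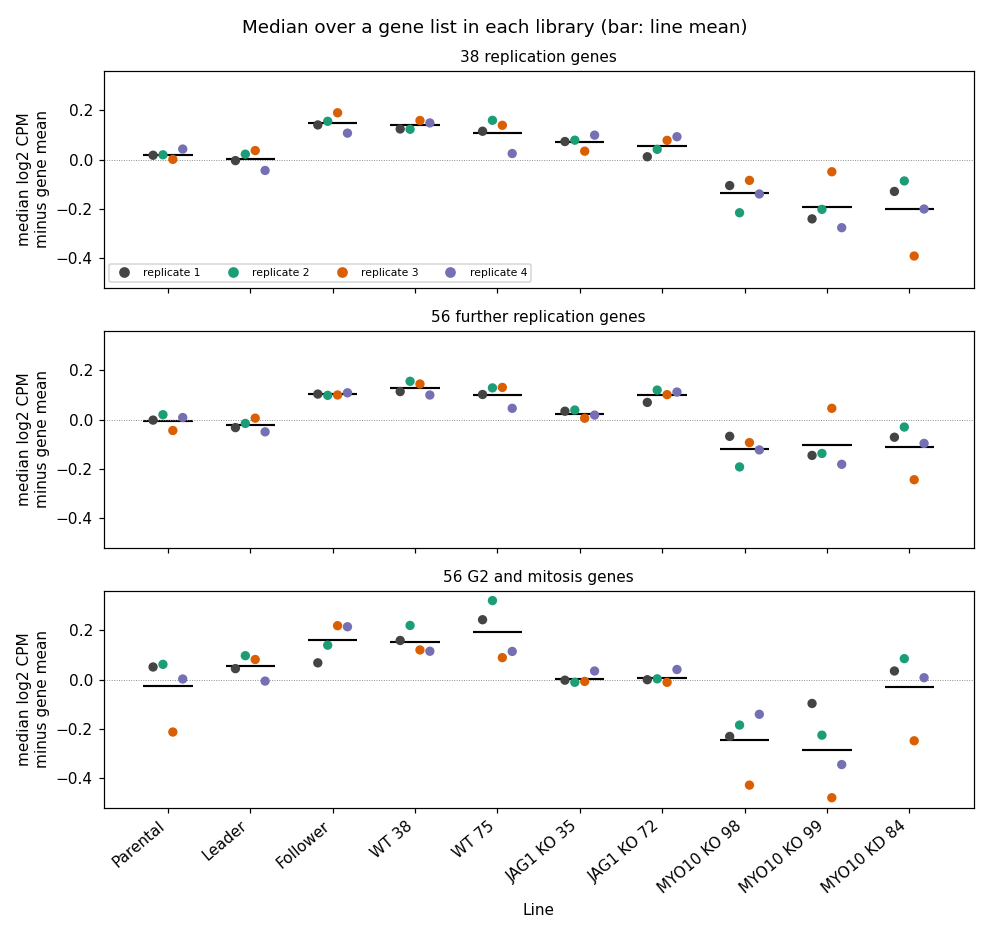
Median over a gene list in each library (points, 1 per culture) and the mean of each line (bars), as log2 CPM minus the mean of each gene over the 40 libraries, for the 38 replication genes, 56 further replication genes and 56 G2 and mitosis genes. All 12 cultures of clones 98, 99 and 84 lie below 0 in the top panel, and clone 84 lies near 0 on average in the bottom one.

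The promoters of several of these genes carry the letters of an E2F site. Of the 38 genes, 33 had an entry among the RefSeq promoters used here (GRCh38.p14), of which the 250 bases before the transcript start were searched; MCM4, MCM5, GINS4, RPA2 and CCNE2 had none. The letters TTTCCCGC, TTTCGCGC, TTTGCCGC or TTTGGCGC occurred on either strand, overlaps counted, in 12 of 33 (36.4%), against 2.79% of 27305 promoters and 2 of 49 promoters of the G2 and mitosis genes. CCAAT occurred in 19 of 33 (57.6%) and in 33.04% of all promoters. The letters TTTGAA or TTCGAA, those of the cell cycle homology region known from mitotic genes, occurred in 2 of 33, in 28 of 49 promoters of the G2 and mitosis genes and in 14.6% of all. Among the replication genes that fell in the MYO10 knockout clones, 4 of the 15 with an entry held the E2F letters, and 8 of the other 18 did. Those 4 are printed below, 5′ to 3′ on the strand of the gene with the E2F letters in capitals, to show where the letters lie in genes that fell; a match is a description, not a site of binding.
MCM6 (chr2:135876444-135876693, minus strand): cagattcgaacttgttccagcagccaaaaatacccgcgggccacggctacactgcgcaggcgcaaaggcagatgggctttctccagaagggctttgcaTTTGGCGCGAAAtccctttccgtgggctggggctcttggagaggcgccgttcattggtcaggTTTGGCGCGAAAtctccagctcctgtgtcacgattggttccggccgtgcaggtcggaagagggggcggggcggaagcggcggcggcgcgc
MCM7 (chr7:100101398-100101647, minus strand): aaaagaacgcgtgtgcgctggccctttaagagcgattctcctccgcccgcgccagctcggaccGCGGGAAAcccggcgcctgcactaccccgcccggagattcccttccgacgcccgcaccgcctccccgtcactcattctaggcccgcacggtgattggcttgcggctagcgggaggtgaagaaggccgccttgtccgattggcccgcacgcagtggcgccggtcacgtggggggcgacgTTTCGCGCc
GINS2 (chr16:85688955-85689204, minus strand): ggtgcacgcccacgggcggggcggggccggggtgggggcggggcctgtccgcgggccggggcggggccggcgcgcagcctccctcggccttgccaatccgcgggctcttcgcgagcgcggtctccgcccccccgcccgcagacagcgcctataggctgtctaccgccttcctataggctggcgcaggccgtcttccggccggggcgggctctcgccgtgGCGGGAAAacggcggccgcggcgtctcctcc
CDT1 (chr16:88803539-88803788, plus strand): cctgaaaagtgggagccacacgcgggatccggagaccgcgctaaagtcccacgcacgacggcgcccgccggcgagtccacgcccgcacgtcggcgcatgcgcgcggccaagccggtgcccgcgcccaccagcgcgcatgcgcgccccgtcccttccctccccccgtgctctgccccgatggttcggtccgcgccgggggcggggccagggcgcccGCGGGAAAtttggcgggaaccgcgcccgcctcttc

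The comparison of MYO10 knockout and knockdown clones with wild-type ones asks how the edited clones differ. Replication genes were mostly lower in both. In the knockout clones 19 of 38 fell and 3 rose, with a median log2 fold change of -0.30, while 11.2% of all genes tested fell and 12.5% rose. In knockdown clone 84, 28 of 38 fell and 2 rose, with a median of -0.32, while 13.2% of all genes fell and 15.5% rose. Without replicate 3 of clone 84, 23 fell and 2 rose. The median log2 fold change over all genes was 0.0042 in the knockout comparison and 0.014 in the knockdown comparison. As averages over pairs of lines, only MCM4 in clone 84 fell by more than 2-fold. Clone 98 alone, set against the wild-type clones, was also past 2-fold for RFC2 (log2 -1.11 ± 0.04) and MCM7 (-1.08 ± 0.05). Both comparisons share the wild-type cultures, so their values are set side by side below and are not independent. Listed by name, 16 genes fell in both (MCM4, MCM5, MCM6, MCM7, CDC45, GINS2, ORC6, RFC2, RFC5, POLE2, RPA2, RRM1, RRM2, TK1, SLBP and CLSPN), CDT1, GINS4 and ORC1 fell in the knockout clones alone, and 12 fell in the knockdown clone alone. MCM3, MCM10, POLD1, POLE, LIG1, E2F1 and CCNE1 fell in neither. The share of all genes that fell in both was not counted, so the 16 serve as a list of names. The counts by role below rest on 3 to 6 genes each, and the shares of all genes above are their background. No result about a role is read from them.

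**Figure D3:**
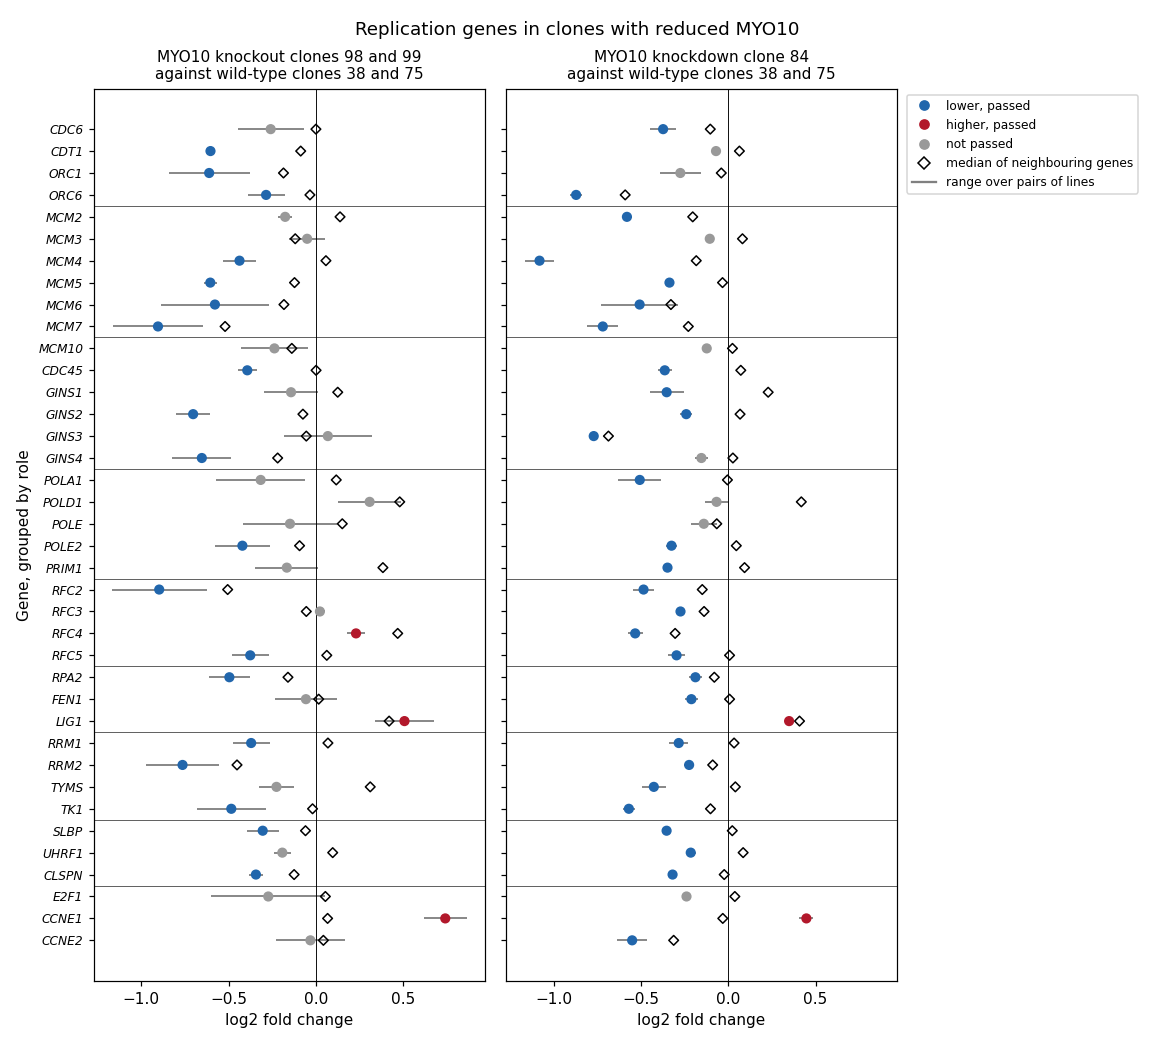
Log2 fold change of each replication gene against wild-type clones 38 and 75 in MYO10 knockout clones 98 and 99 (left) and knockdown clone 84 (right); circles are averages over pairs of lines, coloured by the test, grey lines the range over those pairs, and diamonds the median of the tested genes that start within 5 Mb. Of the 38 circles, 33 lie to the left of their diamond on the left and 37 on the right.

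Genes of origin recognition and licensing fell in 3 of 4 cases in the knockout clones and in 2 of 4 in clone 84. ORC6, the smallest subunit of the origin recognition complex (chr16:46689659-46698394), was at 65.3, 64.2, 71.0 and 73.4 CPM in clone 38 and 64.4, 65.1, 65.6 and 66.8 in clone 75. It was at 54.9, 46.1, 53.5 and 54.3 in clone 98, 52.6, 56.1, 66.0 and 56.6 in clone 99 and 36.0, 38.1, 34.6 and 37.8 in clone 84. Every culture of clone 84 was below every other culture, and 1 culture of clone 99 reached the wild-type range. Its log2 fold change was -0.29 ± 0.04 (adjusted p = 0.015) in the knockout clones and -0.87 ± 0.05 (adjusted p = 8.6e-16) in clone 84, where its 25 neighbours had a median of -0.59. Parentals had the highest mean, 73.0 ± 2.94 CPM. CDT1, which delivers the MCM ring to origins, fell from 175 ± 10.2 and 171 ± 11.7 CPM in the wild-type clones to 114 ± 10.7 and 114 ± 10.1 in the knockout clones (log2 -0.60 ± 0.04). Clone 84, at 165 ± 17.0 CPM, did not pass for it (log2 -0.07 ± 0.05). ORC1, the ATPase subunit of the same complex, fell in the knockout clones (log2 -0.61 ± 0.05). CDC6, which recruits CDT1 and MCM, fell in clone 84 (log2 -0.37 ± 0.05), and the knockout clones had -0.26 ± 0.04 without passing.

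Subunits of the MCM helicase fell in 4 of 6 cases in the knockout clones and in 5 of 6 in clone 84. Per kilobase of exon (GENCODE 29 gene models), MCM7 averaged the highest level over the 40 libraries at 230.3 CPM, followed by MCM4 at 101, MCM3 at 84.3, MCM2 at 62.8, MCM6 at 59.6 and MCM5 at 29.6. MCM4 (chr8:47960941-47978160), which had the widest range among the 6, was at 841, 830.3, 811 and 827 CPM in clone 38 and 955, 964, 944 and 863 in clone 75. Knockout clone 98 had 668, 613, 693 and 628, clone 99 had 571, 652, 751 and 605 and clone 84 had 439, 453, 351 and 417. Clone 84 lay below all 36 other cultures. Its log2 fold change was -1.08 ± 0.05 in clone 84 (adjusted p = 6.4e-18; 14 neighbours, median -0.18) and -0.44 ± 0.04 in the knockout clones (adjusted p = 5.8e-06). Unedited leaders, however, had only 615 ± 17.9 CPM and JAG1 knockout clone 35 627 ± 5.12, within the range of the MYO10 knockout cultures.

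MCM7 (chr7:100092728-100101397), named for its change in both comparisons after its values were seen, showed a wider gap. It was at 1482, 1442, 1400.3 and 1389 CPM in clone 38 and 1202, 1340.3, 1279 and 1230.3 in clone 75, against 677, 606, 635 and 631 in clone 98, 744, 796, 889.6 and 800.2 in clone 99 and 886, 912, 694 and 773 in clone 84. No culture of these 3 clones reached the wild-type clones. The log2 fold change was -0.90 ± 0.04 in the knockout clones (adjusted p = 2.5e-13) and -0.72 ± 0.05 in clone 84 (adjusted p = 6.3e-13). Its 155 neighbours on chromosome 7 had medians of -0.52 and -0.23. Leaders and parentals, at 879 ± 18.9 and 855 ± 33.8 CPM, lay within the spread of clone 84. MCM5 and MCM6 fell in the knockout clones (log2 -0.61 ± 0.05 and -0.58 ± 0.04) and in clone 84 (-0.34 ± 0.06 and -0.51 ± 0.05). MCM2 passed in clone 84 alone (log2 -0.58 ± 0.05), with -0.18 ± 0.04 in the knockout clones.

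Helicase activation genes, the 4 GINS subunits with CDC45 and MCM10, fell in 3 of 6 cases in the knockout clones and in 4 of 6 in clone 84. GINS4 (chr8:41529261-41545030) was at 60.2, 56.3, 59.7 and 62.3 CPM in clone 38, 62.5, 60.7, 52.3 and 50.6 in clone 75, 34.5, 32.4, 34.3 and 33.8 in clone 98 and 39.6, 39.1, 45.3 and 37.5 in clone 99. Clone 84 had 61.6, 56.4, 41.3 and 49.5, which overlapped the wild-type clones. The knockout clones, all below the wild-type clones, fell by log2 0.65 ± 0.05 (adjusted p = 1.1e-06). Followers (45.03 ± 2.68 CPM) and JAG1 knockout clone 72 (42.6 ± 1.74) overlapped clone 99. GINS2 fell in both comparisons (log2 -0.70 ± 0.05 and -0.24 ± 0.06), as did CDC45, the helicase cofactor (log2 -0.39 ± 0.05 and -0.36 ± 0.06). GINS3 differed between clones: it fell in clone 84 to 19.7 ± 1.89 CPM (log2 -0.77 ± 0.05, with a median of -0.69 for its 52 neighbours) and was at 41.5 ± 3.19 CPM in clone 98 and 30.0 ± 0.668 in clone 99, where the knockout comparison did not pass. GINS1 fell in clone 84 (log2 -0.35 ± 0.06), and MCM10, which helps start the helicase, passed in neither (log2 -0.24 ± 0.04 and -0.12 ± 0.06).

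Polymerase and primase genes fell in 1 of 5 cases in the knockout clones and in 3 of 5 in clone 84, beside 11.2% and 13.2% of all genes. POLA1, the catalytic subunit of the polymerase that extends primers (chrX:24693918-24996986), was at 118, 123, 122 and 119 CPM in clone 38 and 138, 153, 151 and 129 in clone 75. It was at 107, 90.6, 102 and 84.6 in clone 98, 109.8, 109.8, 134 and 107 in clone 99 and 95.9, 95.6, 85.2 and 92.1 in clone 84. Clone 84 lay below both wild-type clones (log2 -0.51 ± 0.05, adjusted p = 1.6e-06), and clone 99 overlapped them; the knockout comparison did not pass (log2 -0.32 ± 0.04, adjusted p = 0.74). JAG1 knockout clone 35 had the highest mean, 168 ± 5.66 CPM. POLE2, an accessory subunit of polymerase epsilon, fell in both (log2 -0.42 ± 0.04 and -0.33 ± 0.05), and the primase gene PRIM1 in clone 84 (log2 -0.35 ± 0.05). The catalytic subunits POLD1 and POLE passed in neither, with 0.31 ± 0.05 and -0.15 ± 0.05 in the knockout clones.

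The clamp loader, which places PCNA on DNA, had 2 of 4 subunits lower and 1 higher in the knockout clones, and 4 of 4 lower in clone 84. RFC2 (chr7:74231502-74254399) was at 178, 176, 179.6 and 180.2 CPM in clone 38 and 167, 169.6, 162 and 158 in clone 75. It was at 77.7, 76.4, 83.1 and 80.4 in clone 98, 98.4, 111, 117 and 99.1 in clone 99 and 125, 125, 117 and 123 in clone 84. All 12 cultures lay below all 8 wild-type ones, and no culture of clones 98 and 99 exceeded 117 CPM. The fold changes were log2 -0.90 ± 0.03 (adjusted p = 1.3e-15) and -0.49 ± 0.04 (adjusted p = 1.3e-10), beside medians of -0.51 and -0.15 for 83 neighbours. RFC5 fell in both (log2 -0.38 ± 0.04 and -0.30 ± 0.05) and RFC3 in clone 84 (log2 -0.27 ± 0.06). RFC4 went opposite ways: it rose in the knockout clones (log2 0.23 ± 0.04, adjusted p = 0.02) and fell in clone 84 (log2 -0.53 ± 0.05, adjusted p = 5.7e-09). Its 77 neighbours on chromosome 3 had medians of 0.47 and -0.30 in those comparisons.

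Single-strand binding and strand joining were represented by 3 genes, of which 1 fell and 1 rose in the knockout clones and 2 fell and 1 rose in clone 84. Of all genes, 11.2% fell and 12.5% rose in the knockout clones, and 13.2% fell and 15.5% rose in clone 84. RPA2, a subunit of replication protein A (chr1:27891524-27914797), was at 137, 141, 131 and 126 CPM in clone 38 and 137, 156, 137 and 134 in clone 75, and at 96.7, 87.6, 97.2 and 86.4 and 98.4, 106, 113 and 94.5 in clones 98 and 99. The knockout cultures lay below all wild-type ones, and clone 84, at 116, 126, 114 and 124, overlapped clone 38. It fell in both comparisons (log2 -0.50 ± 0.04, adjusted p = 1.3e-07, and -0.19 ± 0.05, adjusted p = 0.024). FEN1, the flap endonuclease, fell in clone 84 (log2 -0.21 ± 0.05). LIG1, the ligase that seals Okazaki fragments, rose instead, by log2 0.51 ± 0.04 in the knockout clones and 0.35 ± 0.05 in clone 84, and the medians of its 310 neighbours on chromosome 19 were 0.42 and 0.41.

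All 4 genes of nucleotide supply fell in clone 84, and 3 of 4 in the knockout clones. RRM2, the small subunit of ribonucleotide reductase (chr2:10122568-10211010), was at 773, 746, 702 and 849 CPM in clone 38 and 815, 725, 699 and 716 in clone 75. Clone 98 had 439, 362, 358 and 405, clone 99 541, 509, 503 and 459 and clone 84 633, 671, 571 and 702. The knockout cultures lay below all wild-type cultures and clone 84 overlapped the lower ones. Its fold changes were log2 -0.76 ± 0.04 (adjusted p = 1.4e-09) and -0.22 ± 0.05 (adjusted p = 0.014). Against the JAG1 knockout clones RRM2 was higher in clone 84 (log2 0.21, adjusted p = 0.0491), so its direction there rested on the controls. RRM1, the large subunit, and the salvage kinase TK1 fell in both (RRM1 log2 -0.37 ± 0.03 and -0.28 ± 0.04; TK1 -0.49 ± 0.04 and -0.57 ± 0.06). TYMS, thymidylate synthase, fell in clone 84 (log2 -0.43 ± 0.05).

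Genes that act at the fork on chromatin, checkpoint signalling and histone RNA fell in 2 of 3 cases in the knockout clones and in 3 of 3 in clone 84. UHRF1, which passes DNA methylation on to the new strand (chr19:4903080-4962154), was at 227, 209.8, 219.8 and 225 CPM in clone 38 and 221, 199.97, 217 and 211 in clone 75. It was at 188, 176, 185 and 197 in clone 98, 171, 195, 208 and 194 in clone 99 and 204, 204, 149 and 189 in clone 84, so that clones 99 and 84 overlapped the wild-type clones. The knockout comparison did not pass (log2 -0.19 ± 0.04, adjusted p = 0.078) and clone 84 did (log2 -0.22 ± 0.05, adjusted p = 0.013). Set singly against the wild-type clones, clones 98 and 99 were both lower (adjusted p = 0.0095 and 0.049). Against parentals UHRF1 was higher in clone 84 (log2 0.21, adjusted p = 0.00364). SLBP, which binds the stem-loop of histone mRNA, and CLSPN, the checkpoint adaptor claspin, fell in both comparisons (SLBP log2 -0.31 ± 0.03 and -0.35 ± 0.04; CLSPN -0.34 ± 0.04 and -0.32 ± 0.05).

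Among the G1/S regulators, CCNE1 rose in both comparisons. CCNE1 (chr19:29811991-29824312) was at 11.4, 11.1, 11.8 and 12.3 CPM in clone 38 and 10.48, 11.04, 12.4 and 10.1 in clone 75. It was at 18.5, 16.5, 19.7 and 16.7 in clone 98, 17.4, 21.0, 20.3 and 21.4 in clone 99 and 14.7, 15.8, 17.7 and 13.5 in clone 84. All 12 cultures exceeded all 8 wild-type ones. The rise was log2 0.74 ± 0.06 (adjusted p = 2.0e-07) and 0.45 ± 0.07 (adjusted p = 2.8e-04), while its 50 neighbours had medians of 0.07 and -0.03. Against parentals, at 18.3 ± 1.77 CPM, CCNE1 in clone 84 was lower (log2 -0.25, adjusted p = 0.0142). CCNE2, cyclin E2, fell in clone 84 (log2 -0.55 ± 0.07) and had -0.03 ± 0.05 in the knockout clones. E2F1, the transcription factor that drives many of these genes, passed in neither (log2 -0.27 ± 0.07 and -0.24 ± 0.08). The knockout clones differed for it: set singly against the wild-type clones, clone 99 was lower (log2 -0.60 ± 0.08, adjusted p = 1.6e-06). Clone 98 did not pass (0.05 ± 0.08).

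**Figure D4:**
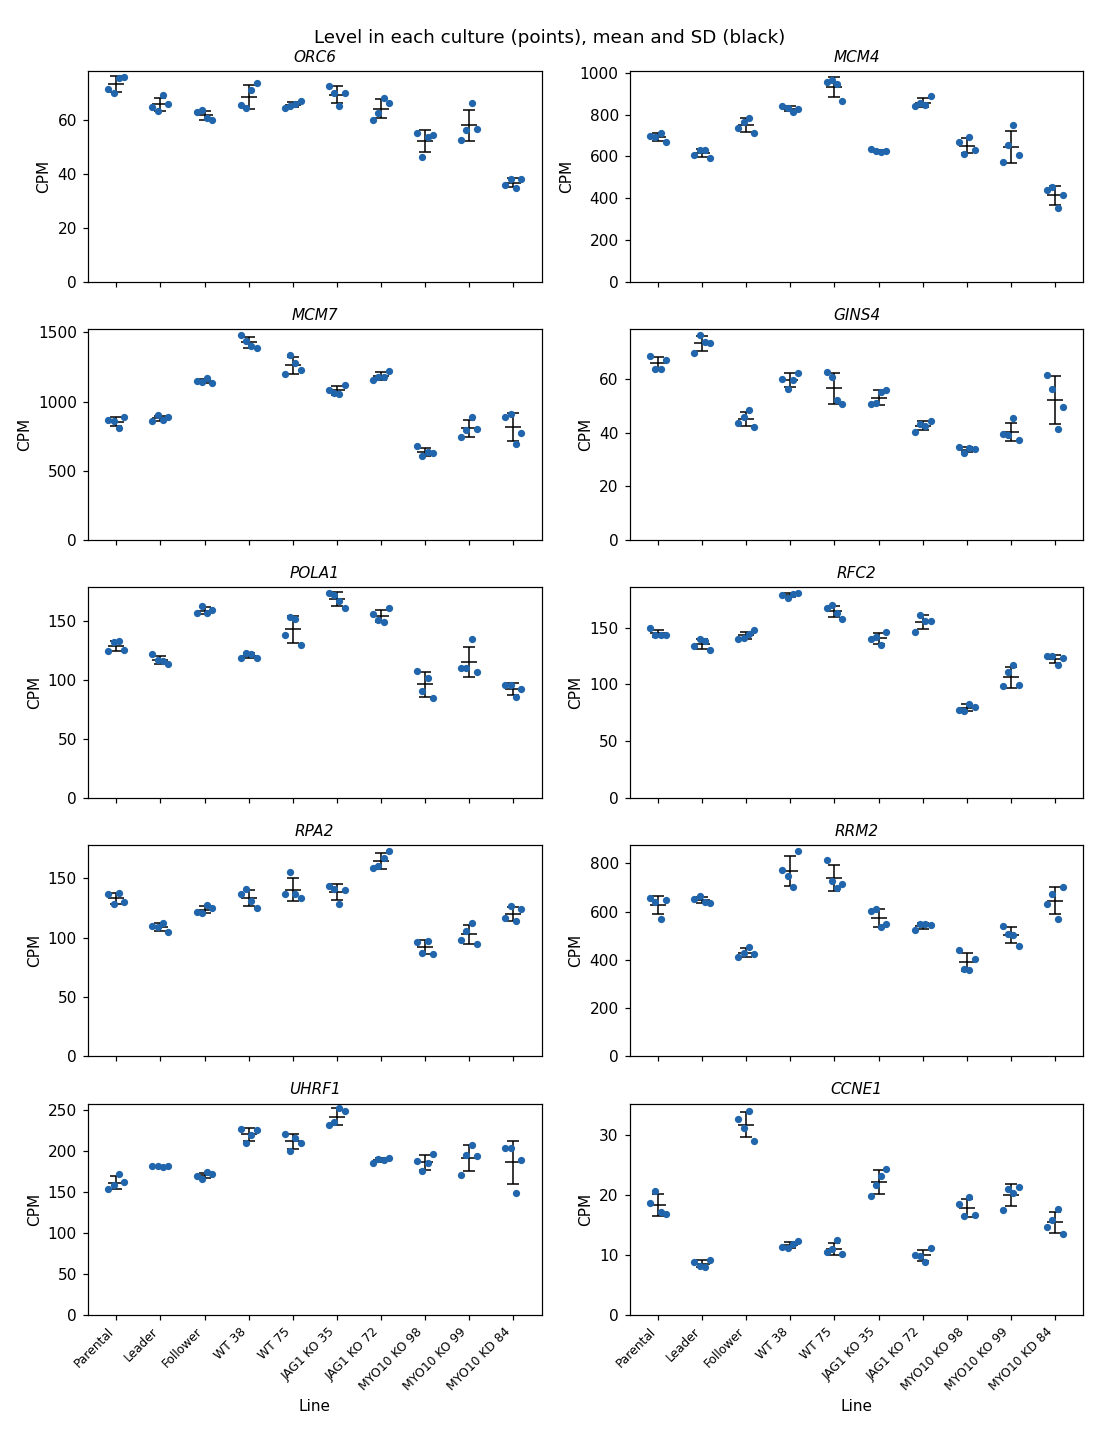
CPM of 10 replication genes in each culture (points) with the mean and SD of each line (black; n = 4), on linear axes from 0. MCM4 and ORC6 are lowest in knockdown clone 84, MCM7 and RFC2 in knockout clone 98, and CCNE1 in leaders.

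Other lists were set beside these genes, first against the wild-type clones. Of 56 further replication genes, 20 fell and 3 rose in the knockout clones (median log2 -0.23), and 29 fell and 2 rose in clone 84 (median -0.27). Those with the largest changes in the knockout clones were PCNA, the sliding clamp (log2 -1.23 ± 0.06), MCM8, a helicase of recombination repair (-1.05 ± 0.04), and ORC3 (-1.04 ± 0.05). In clone 84 they were POLD4, a polymerase delta subunit that rose (log2 0.94 ± 0.07), MTBP (-0.70 ± 0.05) and DONSON (-0.65 ± 0.05), both known from helicase activation. Of 56 G2 and mitosis genes, 38 fell and none rose in the knockout clones (median -0.43), led by TTK (-0.96 ± 0.05), CDC25B (-0.87 ± 0.07) and KIF4A (-0.87 ± 0.05). In clone 84, 26 fell and none rose (median -0.21), led by MKI67 (-0.95 ± 0.06), BUB3 (-0.66 ± 0.04) and SMC4 (-0.55 ± 0.05). Of 25 cell cycle inhibitors and D cyclins, 3 rose and none fell in the knockout clones, a share near the 12.5% of all genes that rose there. They were the antiproliferative BTG1 (log2 1.45 ± 0.07), the ubiquitin ligase gene MDM2 (0.54 ± 0.07) and cyclin D2 gene CCND2. CCND2, low throughout, was at 0.0444 CPM in the wild-type clones and 1.83 CPM in the knockout clones. The latter average covers 0.558 CPM in clone 98 and 3.11 in clone 99. Leaders had 0.370 CPM, JAG1 knockout clone 35 had 2.71 and clone 72 had 0.0654. Of the same 25 genes, 6 rose and 6 fell in clone 84, with CCND2 at 0.723 CPM, E2F4 at log2 -1.15 ± 0.06 and CCNG2 at 0.93 ± 0.19.

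Changes in a chromosome region can move a gene with its neighbours, so each gene was set beside the tested genes that start within 5 Mb. Of all 38 genes, 33 lay below the median of their neighbours in the knockout comparison and 37 in the knockdown comparison, where 50.2% and 49.99% of all genes tested this way lay below theirs. Over all 38 genes the median difference from the neighbours was -0.32 on the log2 scale in the knockout comparison and -0.29 in the knockdown comparison. It was -0.40 for the 19 genes that fell in the knockout clones and -0.31 for the 28 that fell in clone 84. Those genes were picked for having fallen, which by itself tends to place them below their neighbours. The neighbours themselves had a median below 0 for 15 of the 19 and 17 of the 28, and for 20 of all 38 in each comparison. Their median was under -0.2 for 4 of the 19 and 7 of the 28. The part of chromosome regions in these changes was not tested.

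The count of genes that fell held in part with other controls, which were added after seeing the data. Against unedited leaders, 12 fell and 5 rose in the knockout clones (20.3% and 21.7% of all genes), and 22 fell and 4 rose in clone 84 (23.9% and 26.9%). Against parentals, 14 fell and 5 rose in the knockout clones (18.9% and 18.3% of all genes), and 23 fell and 3 rose in clone 84 (24.2% and 25.2%). Set against the JAG1 knockout clones, 13 fell and none rose in the knockout clones (4.17% and 5.67% of all genes), and 20 fell and 1 rose in clone 84 (10.3% and 13.4%). Median log2 fold changes of the 38 genes in the knockout clones and clone 84 were -0.19 and -0.18 against leaders. They were -0.19 and -0.22 against parentals, and -0.25 and -0.24 against the JAG1 knockout clones. MCM4 in the knockout clones (log2 0.075 against leaders) and SLBP (0.063) lost their direction with leaders as controls. Against leaders, 19 of the 56 further replication genes fell and 12 rose in the knockout clones (median log2 -0.07). In clone 84, 26 fell and 12 rose (-0.11). Of the 56 G2 and mitosis genes, 30 fell and 1 rose in the knockout clones (-0.30). Those counts were 19 and 8 in clone 84 (-0.12). Against parentals, 26 of them fell and 4 rose in the knockout clones (-0.23). With parentals as controls, clone 84 had 15 lower and 13 higher (-0.01). With counts summed per clone and the clone as the unit, no replication gene and 0% of all genes passed in either the MYO10 or the JAG1 knockout comparison (edgeR, 3 residual degrees of freedom). At an unadjusted p under 0.05, 15 of the 38 were then lower in the MYO10 knockout clones and none higher, and 1 was lower in the JAG1 knockout clones. The share of all genes at that unadjusted threshold was not counted, so no result about the 38 is read from these counts.

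JAG1 knockout clones shared few changes, in replication genes as in all genes tested. In the comparison with wild-type clones, 2 of 38 fell and none rose, with a median log2 fold change of -0.07. Of all genes, 3.91% fell and 2.41% rose, shares near those of the 38. Leaving out replicate 2 of clone 75, or replicate 2 or 3 of clone 35, left 1. The 2 were RRM2 (log2 -0.43 ± 0.04, adjusted p = 5.0e-05) and TK1 (log2 -0.40 ± 0.04, adjusted p = 0.023). Set singly against the wild-type clones, clones 35 and 72 were also both lower for MCM2 (adjusted p = 0.0024 and 0.019), which did not pass jointly. RRM2 was at 601, 610.2, 537 and 549.8 CPM in clone 35 and 523, 550.2, 548 and 545 in clone 72, all below the wild-type cultures given above. When the clones were averaged in a single contrast, 17 fell and 8 rose (28.3% and 24.7% of all genes), a rule that does not ask the clones to share a direction. With unedited leaders as controls 9 rose and 3 fell (12.9% and 14.1% of all genes). The RB1 gene, at log2 -0.33 ± 0.04, was the only one of 56 further replication genes that passed. Of the G2 and mitosis genes 6 fell, led by CDC25B (-0.86 ± 0.07), SMC4 (-0.58 ± 0.04) and NUF2 (-0.48 ± 0.05).

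Set against each other, JAG1 knockout clones 35 and 72 differed in 20 of 38 genes, 10 higher and 10 lower in clone 35 than in clone 72 (31.8% and 30.1% of all genes); with RLE size factors 13 were higher and 8 lower. Subunits of MCM2-7 were lower in clone 35 in 4 of 6 cases, the largest being MCM4 at log2 -0.45 ± 0.06, and POLE2 was lower by a similar size (-0.47 ± 0.06). CCNE1 was higher, at 19.8, 21.6, 23.2 and 24.4 CPM against 9.96, 9.79, 8.79 and 11.2 in clone 72, with no overlap (log2 1.16 ± 0.09, adjusted p = 2.2e-15). The median of its neighbours was 0.12. LIG1 followed at log2 0.84 ± 0.06, where its neighbours had a median of 0.53.

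Leaders and followers differed in 27 of 38 replication genes, of which 21 were lower and 6 higher in leaders (33.1% and 32% of all genes, so the share lower exceeded the background and the share higher was under it). The median log2 fold change was -0.16. CCNE1 stood out, at 8.72, 8.12, 7.996 and 9.21 CPM in leaders and 32.8, 31.3, 34.0 and 29.1 in followers. Parental cultures lay between, at 18.7, 20.7, 17.1 and 16.9. The log2 difference was -1.90 ± 0.09 (adjusted p = 1.7e-22) against followers and -1.11 ± 0.09 (adjusted p = 7.9e-14) against parentals. Its 50 neighbours on chromosome 19 had medians of -1.70 and -0.73, in the same direction as CCNE1. RFC4 (log2 -0.66 ± 0.06; neighbours -0.54), LIG1 (-0.66 ± 0.06) and CDT1 (-0.55 ± 0.06) were also lower in leaders. GINS4 (log2 0.70 ± 0.07; neighbours 0.54), RRM2 (0.59 ± 0.06; neighbours 1.04) and E2F1 (0.42 ± 0.09) were higher. GINS4 was at 69.6, 76.5, 73.8 and 73.3 CPM in leaders and 43.6, 45.8, 48.4 and 42.3 in followers, without overlap. Of the 56 further replication genes 30 were lower and 12 higher, among them E2F2 (log2 1.08 ± 0.32), PCNA (0.86 ± 0.08) and the checkpoint kinase CHEK1 (-0.84 ± 0.05). Among G2 and mitosis genes 25 were lower and 12 higher, the latter led by HJURP (1.17 ± 0.09).

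Leaders and followers were each compared with parentals as well. Leaders had 5 of 38 higher and 8 lower (17.6% and 19.5% of all genes, shares near those of the 38), with a median of 0.00; scaled by library totals alone, 2 were higher and 12 lower. Without parental replicate 3 or leader replicate 4, 6 were higher and 5 lower, and without parental replicate 4, 7 were higher and 6 lower. Apart from CCNE1, the largest difference was that of RPA2 (log2 -0.29 ± 0.05). Followers had 21 higher and 7 lower (31.8% and 29.2%), with a median of 0.18. The increases in followers were largest for CCNE1 (log2 0.79 ± 0.08), LIG1 (0.63 ± 0.06), CDC45 (0.54 ± 0.07) and RFC4 (0.54 ± 0.06), and the decreases for GINS4 (-0.55 ± 0.07) and RRM2 (-0.54 ± 0.06). Since these comparisons share the leader, follower and parental cultures, they are not independent of each other.

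Wild-type clones 38 and 75, which had also been through editing, did not stand level with the unedited leaders. Of 38 genes, 14 were higher and 2 lower in both clones than in leaders, with a median of 0.14, against 17.1% of all genes in each direction. MCM7 (log2 0.61 ± 0.05), MCM4 (0.51 ± 0.05) and CCNE2 (0.48 ± 0.07) were the most raised, and GINS4 (-0.34 ± 0.06) and RFC5 (-0.25 ± 0.05) were lower. MCM7 was at 861, 901, 866 and 888 CPM in leaders, below every culture of clones 38 and 75. Between the wild-type clones 8 genes passed, 5 higher and 3 lower in clone 38 (12.3% and 13.2% of all genes); library totals alone gave 3 higher and 5 lower. The number that passed fell to 4 without replicate 3 of clone 38 or replicate 1 of clone 75 and to 5 without replicate 2 of clone 75, and without replicate 4 of clone 75 it was 2 higher and 4 lower. MCM6 was 355 ± 10.8 CPM in clone 38 and 261 ± 15.3 in clone 75 (log2 0.44 ± 0.06).

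MYO10 knockout clones 98 and 99 differed from each other in 23 of 38 genes, 8 higher and 15 lower in clone 98 (21% and 23.5% of all genes); scaled by library totals alone, 11 were higher and 13 lower, and without replicate 3 of clone 99, 11 were higher and 9 lower. RFC2 (log2 -0.42 ± 0.04), RRM2 (-0.36 ± 0.06) and MCM7 (-0.34 ± 0.05) were lower in clone 98, and E2F1 (0.65 ± 0.09) and GINS3 (0.47 ± 0.06) were higher. Neighbours of RFC2 and MCM7 had medians of -0.41 and -0.47 in that comparison.

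Across the 10 line means, given as a description, the median of the 38 genes followed that of the further replication genes (Pearson r = 0.947, Spearman rho = 0.939) and that of the G2 and mitosis genes (r = 0.839, rho = 0.842). Against cell cycle inhibitors and D cyclins r was -0.507. The lines share their origin, and the lists share libraries. Single genes were looser: the median r over the 703 pairs was 0.345, and 79.2% of pairs were above 0. MCM7 (r = 0.858 with the mean of the others), CDC6 (0.847) and CLSPN (0.842) followed the rest most closely. CCNE1 (-0.118), POLD1 (-0.122) and LIG1 (-0.24) had weak correlations below 0. All 3 lie on chromosome 19, as does UHRF1 (0.317).

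Some counts are less certain. The strand setting of the counting is not given in the sources used here, and another gene overlaps over 10% of the exon bases of MCM2, GINS3, GINS4, PRIM1, RRM2, TYMS and CCNE2. Named pseudogenes exist for RFC3, RFC5, RPA2, RRM2, TYMS and FEN1, with which they may share reads.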

How the data were processed

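RNA from 40 cultures, 4 for each of 10 H1299 lines, was sequenced. The deposited table holds the authors' raw read counts per gene symbol, whole numbers with no normalization; STAR 2.7.11b, HTSeq 2.0.5, fastp 0.23.4, FastQC 0.12.0, MultiQC 1.24.1 and the build hg38 are named in the submitters' processing notes. The annotation release and the strand setting are not given in the sources used here. Of 59251 symbols, 19703 passed filterByExpr (minimum count 10, by line). They held 99.957% of the counts. Counts were tested in R 4.3.3 with edgeR 4.0.16 (limma 3.58.1), using TMM scaling (factors 0.952 to 1.058) and robust quasi-likelihood F tests with 1 coefficient per line, no block and 30 residual degrees of freedom. Log2 CPM used a prior count of 2. With several clones, the largest p over pairs of lines was adjusted (Benjamini-Hochberg), and it was set to 1 where the signs differed. The common biological coefficient of variation was 8.62%. No label ties a replicate number to a shared batch or day. Cultures with the same number deviated together (r over 0.1) at all 4 numbers for clones 38 and 75, clones 99 and 38 and clones 99 and 75, and not for the other line pairs compared. Cultures of a line differed beyond sampling noise (chi-square per degree of freedom 2.45 to 33.6), so none was merged.

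Members and lists were chosen with earlier results of these data known. Values by culture are given for the gene of each role with the widest range and for genes that passed at 2-fold or more, and MCM7 was added after its values were seen. The genes of other lists named by the size of their change are given for the MYO10 and JAG1 knockout comparisons, the knockdown comparison and leaders against followers. Other control lines, the fourth set of E2F letters and the share of all genes below their neighbours were added after results were seen. Alternatives were RLE scaling, library totals alone, no low-count filter, DESeq2 1.42.0, a minimum fold, a replicate block, counts summed per clone, an average contrast and leaving out each culture. The edgeR steps were tested on simulated data. Figures and sequence searches used Python 3.11.15, pandas 2.3.3 and matplotlib 3.10.9, with RefSeq promoters and positions (GRCh38.p14) and exon lengths from GENCODE 29.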

Additional observations from a re-analysis of the deposited data

Results flagged for a closer look

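Among 390 sets of 4 cultures of a line, 23 held a culture far from the other 3 by Dixon's test, where chance gives about 1 in 20; all values are CPM. Replicate 3 of clone 84 was low for MCM3 (242, others 300 to 305), TYMS (57.2, others 69.7 to 71.1) and LIG1 (66.5, others 85.7 to 88.7). Replicate 3 of clone 99 was high for CDC6 (81.1, others 64.9 to 65.6), CDC45 (61.8, others 47.8 to 50) and POLA1 (134, others 107 to 110), and replicate 2 of clone 98 was low for ORC6 (46.1, others 53.5 to 54.9).

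In wild-type clone 75, replicate 2 was high for RPA2 (156, others 134 to 137) and TK1 (181, others 159 to 161), replicate 3 was high for E2F1 (130, others 114 to 116) and replicate 4 was low for CCNE2 (34.9, others 38.1 to 38.8). In wild-type clone 38, replicate 2 was high for MCM6 (371, others 347 to 351) and RRM1 (188, others 172 to 174), and replicate 3 was low for SLBP (188, others 194 to 195). In JAG1 knockout clone 35, replicate 4 was high for MCM2 (294, others 274 to 277), and replicate 2 was high for RFC5 (78.9, others 74.6 to 75.3) and PRIM1 (86.7, others 80.1 to 80.5).

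Parental cultures stood out high for MCM5 in replicate 3 (213, others 192 to 195), GINS2 in replicate 1 (106, others 98.0 to 98.9), RFC2 in replicate 1 (150, others 143 to 144) and POLE in replicate 4 (192, others 170 to 173), and low for RRM1 in replicate 2 (173, others at 177). In leaders, replicate 2 was high for TK1 (162, others at 152).

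GINS3 moved in opposite directions in the MYO10 knockout clones, at log2 0.30 in clone 98 and -0.17 in clone 99 against the wild-type clones, and the test of clone 98 against clone 99 gave a difference of 0.47.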

How the results depend on the processing

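Counts of the 38 genes that passed stayed within 1.5 times the values above with RLE scaling, DESeq2, no low-count filter and a replicate block. The balance of higher and lower was kept except that clone 38 against 75 had 3 and 3 with no low-count filter, and clone 35 against 72, at 10 and 10, had 13 and 8 with RLE scaling, 13 and 9 with DESeq2 and 11 and 6 with no low-count filter. Same-numbered cultures correlated over 0.1 in 41 of 72 cases (from -0.52 to 0.74), at all 4 numbers only for clones 38 and 75, 99 and 38, and 99 and 75. The replicate block gave 27 for leaders against followers, 13 for leaders against parentals, 28 for followers against parentals, 7 for clone 38 against 75, 16 for wild-type clones against leaders, 2 for JAG1 knockout, 22 for MYO10 knockout, 30 for the knockdown, 20 for clone 35 against 72, 23 for clone 98 against 99 and 38 for any difference. With a log2 fold change of at least 1 required, 1 gene passed in each of leaders against followers, leaders against parentals, the knockdown comparison and clone 35 against 72, 0 in each of the other 6 comparisons of lines, and 7 in the test over all lines. Counts summed per clone gave 0 for both knockouts. The average of the clones gave 25 for JAG1 knockout, leaders as controls gave it 12 with the opposite direction, and JAG1 knockout clones as controls gave 13 for MYO10 knockout. Library totals alone gave 8 for clone 38 against 75 with the direction turned.

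Leaving out 1 culture at a time gave 22 to 26 for leaders against followers, 10 to 14 for leaders against parentals, 26 to 28 for followers against parentals, 4 to 9 for clone 38 against 75, 15 to 17 for wild-type clones against leaders, 1 to 3 for JAG1 knockout, 20 to 24 for MYO10 knockout, 25 to 32 for the knockdown, 18 to 21 for clone 35 against 72, 20 to 24 for clone 98 against 99 and 38 for any difference. The direction turned without parental replicate 3 (11), parental replicate 4 (13) or leader replicate 4 (11) for leaders against parentals, without replicate 4 of clone 75 (6) for clone 38 against 75, and without replicate 3 of clone 99 (20) for clone 98 against 99.

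Among single genes, directions turned only with other control lines. In the knockdown comparison, parentals as controls gave log2 values of -0.25 for CCNE1, 0.027 for CCNE2, 0.061 for MCM5, 0.025 for POLE2, 0.040 for RRM2 and 0.21 for UHRF1, and leaders gave 0.044 for GINS2, 0.14 for RPA2, 0.015 for SLBP and 0.039 for UHRF1. JAG1 knockout clones gave 0.21 for RRM2. For MYO10 knockout, leaders gave 0.075 for MCM4 and 0.063 for SLBP. The cause was not tested in any of these. Of 189 calls of single genes, 188 stayed with DESeq2 and with the replicate block, 187 with RLE scaling, 175 with library totals alone and 172 with no low-count filter. All 24 calls refitted with counts summed per clone were lost, and leaving out 1 culture at a time lost 125 calls and kept 1763. With 1 to 2 clones per genotype, a difference between clones and one between genotypes cannot be told apart, and no depth limit applied to these genes, whose lowest count was 320.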
